A study of Mus musculus with 43 samples.

Results

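The genes described here are 10 genes by which adipose tissue responds to insulin and takes up glucose: Insr, Irs1, Irs2, Pik3r1, Akt2, Tbc1d4, Slc2a4, Foxo1, Pck1 and Igf1. They were picked by gene name, as parts of the insulin receptor pathway of fat, with no cut on a measured value. Earlier results of these data were known when they were chosen. They are 10 of the 56748 genes in the deposited tables, and all 10 were among the 20218 genes that passed the filter on low counts. RNA-seq was done on white fat of the epididymal pad, a visceral depot, of male mice in 5 groups. The SD group (7 libraries) ate a standard diet with 10% fat, and the HFD group (10 libraries) ate a diet with 60% fat. In the groups SZ-A 200, SZ-A 400 and SZ-A 600 (9, 8 and 9 libraries) mice on the same high-fat diet were given SZ-A, an alkaloid preparation from Ramulus Mori (Sangzhi), the twig of mulberry, at daily doses of 200, 400 and 600 mg/kg/day. The sources used here do not give strain, age or length of treatment, and the labels name no genetic change in any group.

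When insulin binds its receptor on a fat cell, the receptor phosphorylates the insulin receptor substrates, which recruit phosphatidylinositol 3-kinase and so activate the kinase AKT. AKT phosphorylates TBC1D4 (AS160), which lets vesicles that carry the glucose transporter GLUT4 move to the cell surface, and it phosphorylates FOXO1, which then leaves the nucleus. In white fat insulin also blocks lipolysis and lowers the transcription of Pck1, whose product supplies glycerol backbones for the re-esterification of fatty acids. IGF1 acts on a closely related receptor and is made in fat by adipocytes and by cells of the stroma, macrophages among them.

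Total counts per library ranged from 32716294 to 44259619, with a median of 37552576. Levels are normalised CPM, counts relative to the library total after that total was scaled by its TMM factor, and levels of different genes are compared only as the authors' FPKM, which also divides by gene length. A gene was called where edgeR's quasi-likelihood test gave a p under 0.05 after Benjamini-Hochberg adjustment across every gene tested. The labels speak of replicate biosamples and name no animal, and the p-values therefore rest on how far libraries of a group lie apart, which may be technical in part. The libraries fall into 2 sets by how much of their counts small noncoding RNA genes took: set 1 (22 libraries) holds libraries 1 and 2 of SD and 1 to 5 of every other group, and set 2 (21) holds the rest. The labels do not name these sets. Between the sets 57.9% of tested genes differed, among them Insr, Irs1, Irs2 and Tbc1d4, which were higher in set 2 by 0.51, 0.79, 0.63 and 0.48 on the log2 scale. SD library 4, SZ-A 400 libraries 3 and 6 and SZ-A 600 library 6 held from 185 to 752 genes that were high in that library alone and are taken to hold RNA of other tissue. Their summed markers of duct epithelium were at 409, 134, 23199 and 684 CPM, against at most 62.5 in any other library, SD library 1. All 10 adipocyte markers had a median above 1 CPM in every group.

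The markers of macrophages moved with the groups. Their 10 summed levels had medians of 517 CPM in SD, 6880.2 in HFD, 4321 in SZ-A 200, 1442 in SZ-A 400 and 2051 in SZ-A 600. The lowest and highest libraries were at 434 and 1077 in SD and at 841 and 10755 in HFD. All 10 rose in HFD against SD, and 5 of 10 fell in SZ-A 600 against HFD. Of the preadipocyte and fibroblast markers 5 of 8 rose in HFD and 3 of 8 fell at 600 mg/kg/day, and all 6 B and plasma cell markers fell at 600 mg/kg/day. The summed adipocyte markers had medians of 38721 CPM in SD, 27894 in HFD and 44321 in SZ-A 600, and 2 of 10 fell and 1 rose in HFD. The summed endothelial markers had medians of 1812 CPM in SD, 964 in HFD and 1069 in SZ-A 600, and 2 of 6 fell and 0 rose in HFD. In whole tissue, fewer cells of a type, such as adipocytes, and less RNA of a gene per cell cannot be told apart. The part of these markers in the results below was not tested.

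The proximal promoters of the members whose RNA was most lowered in HFD are shown first, since Irs2 and Pck1 are genes whose transcription insulin is known to lower, and Irs1 is the closest relative of Irs2 among the members. Of the 10 genes 8 have an entry in the RefSeq promoter table of build GRCm38.p6, and Insr and Slc2a4 are named only. Each sequence holds the 250 bases before the transcription start, 5′ to 3′ on the strand of the gene. They lie at chr1:82291440-82291689 (minus strand, Irs1), chr8:11008930-11009179 (minus strand, Irs2) and chr2:173152823-173153072 (plus strand, Pck1). In Irs1 and Irs2 capitals mark exact matches to the E-box, whose letters are CACGTG. They also mark the core of the insulin response element, spelled TGTTTTG, which in the upstream part of Irs1 runs into the E-box. In Pck1 capitals mark the cAMP response element in the form TTACGTCA.
Irs1: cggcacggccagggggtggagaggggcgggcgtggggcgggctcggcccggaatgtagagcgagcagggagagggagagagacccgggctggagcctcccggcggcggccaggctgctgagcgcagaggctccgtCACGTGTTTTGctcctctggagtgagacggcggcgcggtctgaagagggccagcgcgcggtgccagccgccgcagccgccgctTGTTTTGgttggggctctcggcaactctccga
Irs2: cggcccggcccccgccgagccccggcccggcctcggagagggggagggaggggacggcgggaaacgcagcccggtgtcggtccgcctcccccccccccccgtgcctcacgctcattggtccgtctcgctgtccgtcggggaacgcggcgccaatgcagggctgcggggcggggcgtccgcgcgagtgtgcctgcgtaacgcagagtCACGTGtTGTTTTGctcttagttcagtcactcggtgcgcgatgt
Pck1: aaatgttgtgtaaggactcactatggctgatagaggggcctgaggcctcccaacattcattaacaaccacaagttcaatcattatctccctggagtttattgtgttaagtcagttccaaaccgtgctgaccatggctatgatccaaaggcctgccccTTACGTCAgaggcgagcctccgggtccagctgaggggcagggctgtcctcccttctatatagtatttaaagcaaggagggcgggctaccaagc
In Irs1 the E-box lies 115 to 110 bases before the start and overlaps an insulin response core at 111 to 105, and another such core lies at 32 to 26. In Irs2 the E-box lies at 44 to 39 and the insulin response core at 37 to 31, 1 base apart. Over 32851 promoter windows of the same length, on both strands, 6.02% hold the E-box, 5.56% hold the insulin response core and 0.295% (97 windows) hold both. The element of Pck1, which lies 93 to 86 bases before the start of Pck1, is in 0.447% of windows. The canonical FOXO site, GTAAACA, stands in 3.17% of windows and in none of those of these 8 genes. The same holds for the symmetric cAMP response element, TGACGTCA, which stands in 1.55% of windows. The motifs were chosen after the sequences were seen, and a match describes letters, not binding.

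In the HFD group the receptor, the substrates Irs1 and Irs2, the kinase subunit, the kinase and Pck1 were lower than in SD, while the glucose transporter was not called. Of the 10 genes 6 fell and 0 rose, where 13% of all tested genes fell, 18.6% rose and 31.6% were called in either direction. All 10 fitted differences were below 0, with a median of -0.66 on the log2 scale against -0.05 over all tested genes. Under upper-quartile scaling the median of all genes was -0.17, and 2959 genes rose and 3501 fell in place of 3756 and 2634. Under that scaling 6 members fell as well.

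**Figure D1:**
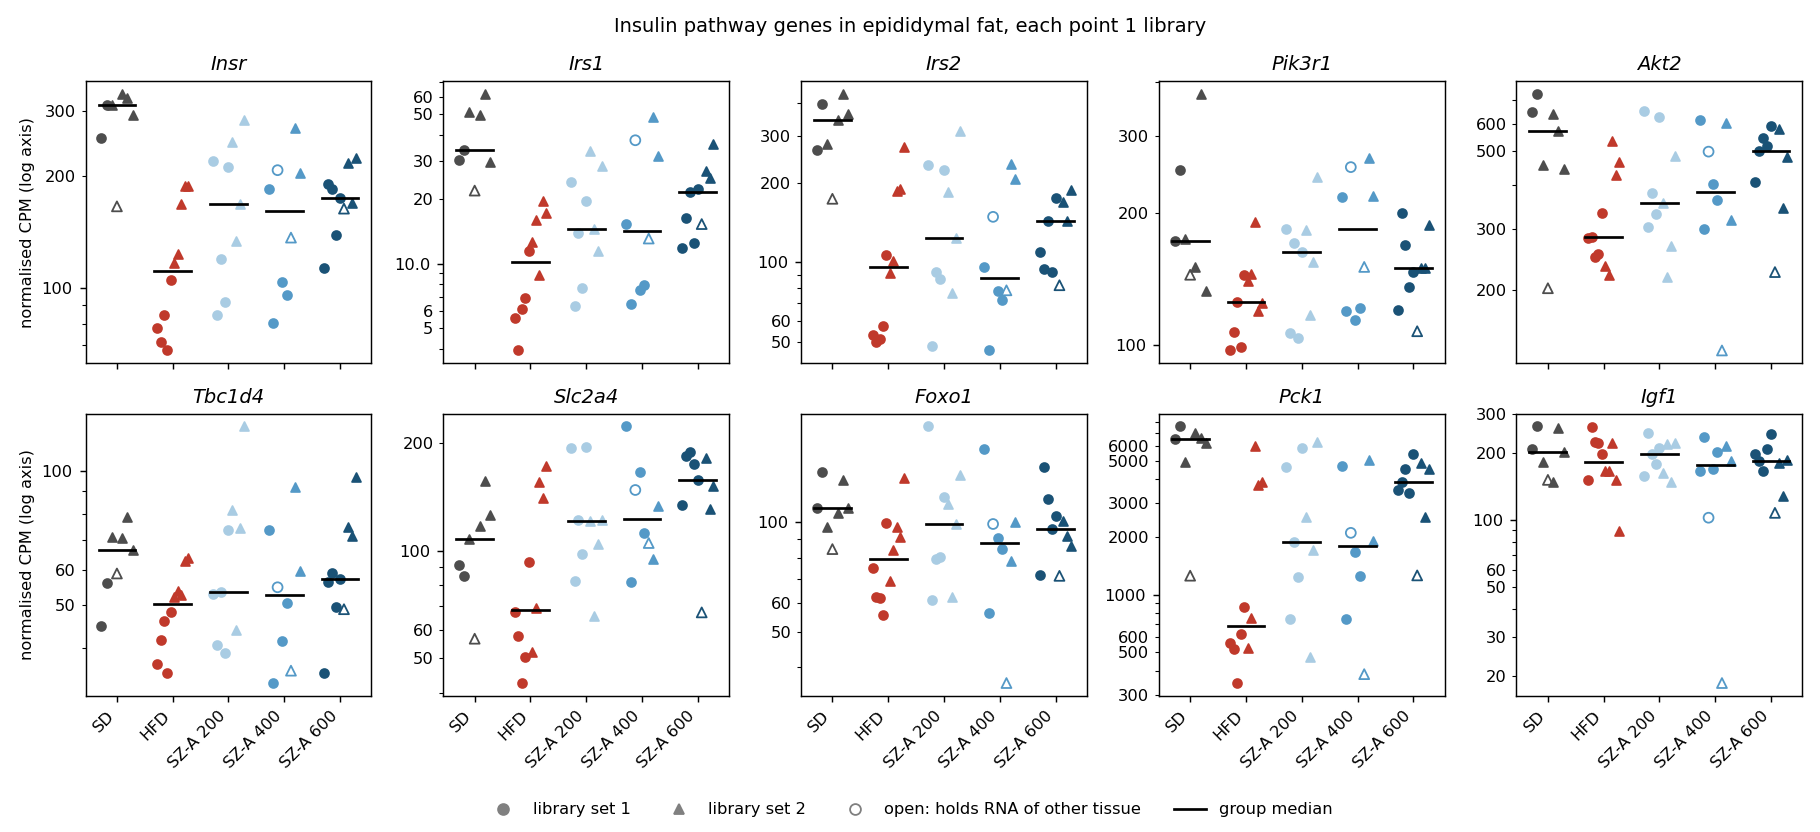
Normalised CPM (log axis) of the 10 genes in each of 43 libraries, by group. Circles are library set 1 and triangles set 2, open symbols are the 4 libraries with RNA of other tissue, and bars are group medians. All 10 HFD points of Irs1 lie below the lowest SD point, and Pck1 in HFD is split between 7 libraries at 346 to 859 CPM and 3 at 3731 to 5990.2.

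Gene positions are given below as in the deposited table, whose build could not be settled. They do not match GRCm38 and are not to be joined with the promoter positions. Insr (ENSMUSG00000005534, chr8:3172061-3329617) encodes the insulin receptor. It was at 166 (lowest), 311 (median) and 333 (highest) normalised CPM in SD and at 67.8, 111 and 188 in HFD. Of the 10 HFD libraries 7 were below the lowest SD library, and the lowest SD library, number 4, was one of those with RNA of other tissue. The fall was 1.26 on the log2 scale (fitted difference -1.26, SE 0.25, adjusted p = 3.73e-04, edgeR), a level 2.39-fold lower.

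Irs1 and Irs2 encode docking proteins that the receptor phosphorylates, and Irs1 showed the largest fitted fall of the 10 genes. Irs1 (ENSMUSG00000055980, chr1:82210822-82269137) was at 21.9, 33.9 and 61.9 CPM in SD and at 3.94, 10.2 and 19.5 in HFD. The groups did not overlap, which held for 0.905% of tested genes in this direction. The fall was 1.87 on the log2 scale (-1.87, SE 0.37, edgeR adjusted p = 3.88e-04), or 3.66-fold. Irs2 (ENSMUSG00000038894, chr8:11034681-11058458) was at 174, 345 and 434 CPM in SD and at 49.9, 96.0 and 274 in HFD. HFD libraries 1 to 4 were between 49.9 and 57.4 CPM, libraries 5 to 7 between 91.0 and 106, and libraries 8, 9 and 10 at 187, 189 and 274. The fall of Irs2 was 1.48 on the log2 scale (-1.48, SE 0.35, edgeR adjusted p = 0.00176). Per length Irs2 was more abundant than Irs1, at 52.3 ± 14.5 FPKM in SD against 4.46 ± 1.67 (standard deviation, n = 7). In HFD the means were 18.2 ± 12.1 and 1.17 ± 0.592 (standard deviation, n = 10). The substrate Irs3, which is not among the 10 genes, did not fall and is given below with the receptor adaptors.

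Pik3r1 and Akt2, the next steps after the substrates, had fitted differences nearer to 0. Pik3r1 (ENSMUSG00000041417, chr13:101817071-101904725) encodes p85α, the regulatory subunit of phosphatidylinositol 3-kinase. It was at 133, 173 and 375 CPM in SD and at 97.0, 125 and 191 in HFD, and 6 of 10 HFD libraries were below the lowest SD library. The fall of 0.63 on the log2 scale (-0.63, SE 0.20, edgeR adjusted p = 0.0152) rested on SD library 6, the highest, and without it the difference was -0.40 (adjusted p = 0.108). Akt2 (ENSMUSG00000004056, chr7:27290977-27340251) encodes the AKT isoform tied to glucose uptake in fat and muscle. It was at 203, 571 and 729 CPM in SD and at 221, 284 and 534 in HFD, and SD library 4 alone was below every HFD library. The fall was 0.68 on the log2 scale (-0.68, SE 0.25, edgeR adjusted p = 0.0372). The call was lost without any of SD libraries 1, 2, 5 and 6 or HFD libraries 1, 2, 3, 4, 6 and 7, with an adjusted p of up to 0.0873. Without the 4 libraries with RNA of other tissue the difference was -0.84 (adjusted p = 0.00208).

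The 2 genes of GLUT4 transport were not called in HFD against SD. Tbc1d4 (ENSMUSG00000033083, chr14:101679796-101846627), the AKT substrate that holds GLUT4 vesicles back, was at 44.9, 66.5 and 78.8 CPM in SD and at 35.1, 50.2 and 63.6 in HFD. Its fitted difference was -0.37 (SE 0.21, edgeR adjusted p = 0.159). Slc2a4 (ENSMUSG00000018566, chr11:69833365-69839014), which encodes GLUT4 itself, was at 56.8, 108 and 156 CPM in SD and at 42.7, 68.3 and 172 in HFD. HFD libraries 1 to 7 lay between 42.7 and 92.9 CPM and libraries 8, 9 and 10 at 156, 141 and 172, so the groups overlapped over the whole SD range. The fitted difference was -0.23 (SE 0.26, adjusted p = 0.515), and within sets 1 and 2 it was -0.55 (adjusted p = 0.220) and 0.04 (adjusted p = 0.956).

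Foxo1 (ENSMUSG00000044167, chr3:52175757-52260642), the transcription factor that AKT keeps out of the nucleus, was at 84.4, 109 and 137 CPM in SD and at 55.5, 79.2 and 133 in HFD. Its difference of -0.42 (SE 0.21, edgeR adjusted p = 0.125) was not called. Pck1 (ENSMUSG00000027513, chr2:172994841-173001066), cytosolic phosphoenolpyruvate carboxykinase, was the most abundant of the 10 per length, at 1700.4 ± 624 FPKM in SD (standard deviation, n = 7). It was at 1256, 6509 and 7551 normalised CPM in SD and at 346, 687 and 5990.2 in HFD. The lowest SD library, number 4, was one of those with RNA of other tissue, and the other SD libraries were at 4906 to 7551. The HFD libraries lay far apart: libraries 1 to 7 were between 346 and 859 CPM, and libraries 8, 9 and 10 were at 5990.2, 3731 and 3856. The fall was 1.69 on the log2 scale (SE 0.54, edgeR adjusted p = 0.0166), 3.22-fold. In HFD libraries 8, 9 and 10 the summed macrophage markers were at 841, 2806 and 960 CPM, the 3 lowest of that group. Their summed adipocyte markers were at 66210, 37566 and 33797 CPM, the 3 highest of that group. The part of these markers in the level of Pck1 was not tested. Igf1 (ENSMUSG00000020053, chr10:87694127-87772904) was at 148, 203 and 263 CPM in SD and at 89.2, 182 and 261 in HFD, with a difference of -0.13 (SE 0.25, adjusted p = 0.718).

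**Figure D2:**
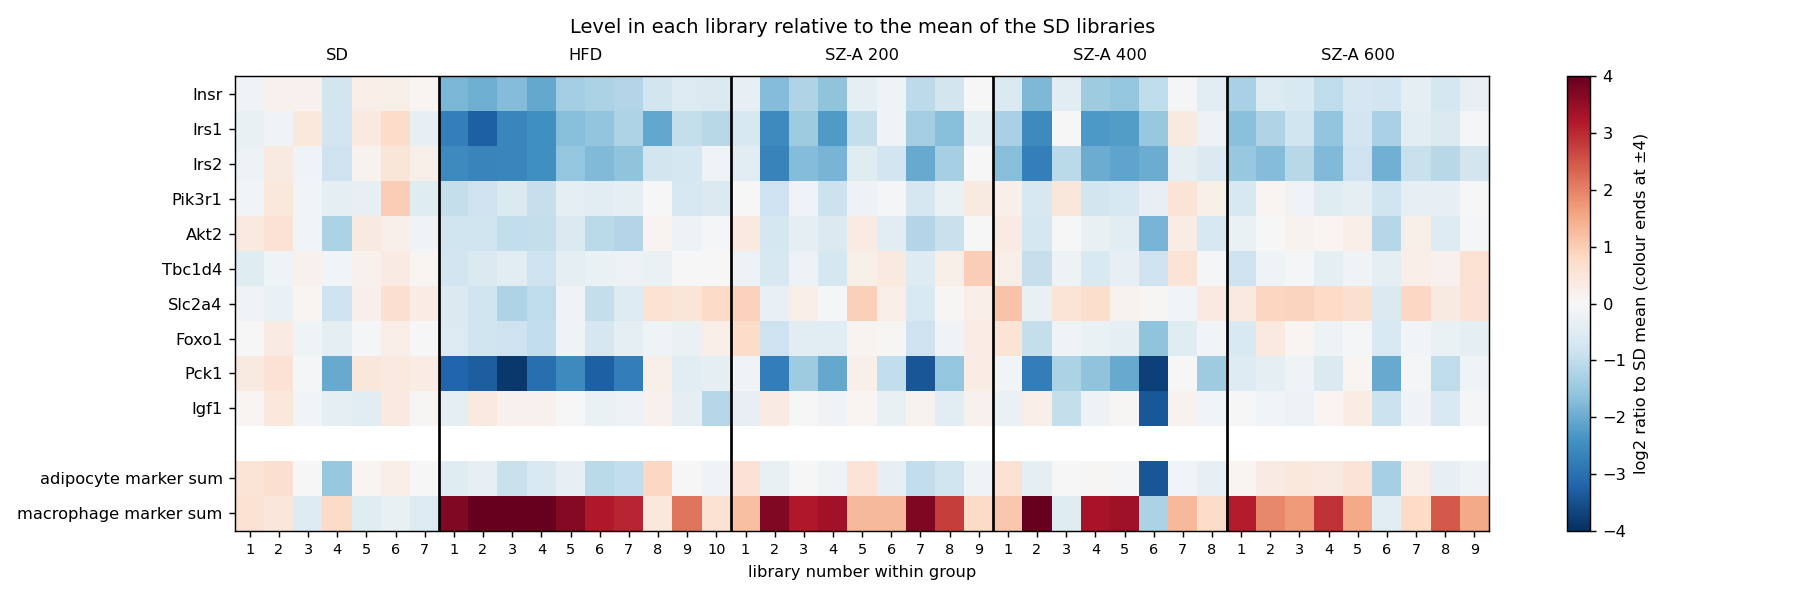
Log2 ratio of each library to the mean of the SD libraries for the 10 genes and for the summed adipocyte and macrophage markers, with libraries in columns and colours ending at ±4. In HFD libraries 1 to 7 Irs1, Irs2 and Pck1 are blue and the macrophage sum is deep red. HFD libraries 8, 9 and 10 are paler in both, except Irs1 in library 8 (8.84 CPM).

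For the 6 called genes the fitted differences between HFD and SD lay farther from 0 in library set 1, which holds 2 SD and 5 HFD libraries, than in set 2, with 5 and 5. Set 2 also holds SD library 4, with RNA of other tissue, and HFD libraries 8, 9 and 10, described above. The part of these libraries in the difference between the sets was not tested. Within set 1 the same 6 members fell (18.8% of tested genes there), and within set 2 only Irs1 did (0.669%). The fitted differences in sets 1 and 2 were -1.84 and -0.89 for Insr, -2.29 and -1.55 for Irs1, -2.43 and -0.95 for Irs2 and -3.64 and -0.82 for Pck1. For Akt2 they were -1.34 and -0.32, and for Pik3r1 -0.94 and -0.47. Tested directly, the sets' differences were called apart for none of the 10 genes (lowest adjusted p = 0.523, edgeR) and 0 of all tested genes, while Insr, Irs2 and Pck1 had an unadjusted p of 0.0419, 0.0298 and 0.0103. With the set as a term in the fit the same 6 members fell, where 14.9% of genes did, with Insr at -1.22 and Irs1 at -1.80.

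Under SZ-A the fitted differences from HFD were mostly above 0, and Slc2a4 at the highest dose was the only member called. The 3 doses share the HFD libraries, so their values stand side by side and do not support each other. At 200 mg/kg/day 0 of 10 genes were called, where 0.00989% of tested genes (2) were. All 10 fitted differences were above 0, with a median of 0.40 against 0.01 over all genes, and 3 had an unadjusted p under 0.05, as did 1370 of the 20218 genes. At 400 mg/kg/day 0 of 10 were called, where 2.87% of genes were, and 9 were above 0, with a median of 0.31 against 0.05 and 3 with an unadjusted p under 0.05 (3662 of all genes). At 600 mg/kg/day 1 of 10 rose, where 4.98% of genes rose and 11.7% were called in either direction. Here 9 were above 0, with a median of 0.40 against 0.05, and 5 had an unadjusted p under 0.05 (5869 of all genes). A share of 1 in 10 is near that background. DESeq2's Wald test called 0, 0 and 2 of the 10 genes at the 3 doses, Irs1 being the other at 600 mg/kg/day. Over all genes that test called 11 higher and 15 lower, 462 and 201, and 1231 and 1838 at these doses.

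Slc2a4 was at 65.8, 121 and 195 CPM (lowest, median, highest) in SZ-A 200, at 82.0, 123 and 223 in SZ-A 400 and at 67.2, 158 and 189 in SZ-A 600. In SZ-A 600, 4 of 9 libraries were above the highest HFD library and 8 of 9 above the HFD median. The lowest, library 6, was one of those with RNA of other tissue. The medians ran from HFD through SD, SZ-A 200 and SZ-A 400 to SZ-A 600, and neighbours in that order were not called where tested: HFD and SD, SD and SZ-A 200 (difference 0.21, adjusted p = 0.601). The rise at 600 mg/kg/day was 0.76 on the log2 scale (SE 0.25, edgeR adjusted p = 0.0402), 1.69-fold. At 200 and 400 mg/kg/day the differences were 0.44 (adjusted p = 0.767) and 0.56 (adjusted p = 0.225). The call at 600 mg/kg/day was lost without any one of HFD libraries 1 to 7 or SZ-A 600 libraries 2, 3, 4, 5, 7 and 9, and over all libraries left out the adjusted p ran from 0.0122 to 0.0791. It was also lost with no filter on low counts (0.77, adjusted p = 0.0554). Within set 1 the difference was 1.48 (adjusted p = 0.00183) and within set 2 it was 0.17 (adjusted p = 0.878). The test of that difference between the sets gave an adjusted p of 0.416 (unadjusted 0.00818).

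The receptor and its substrates were not called against HFD at any dose. Irs1 was at 6.36, 14.5 and 33.4 CPM in SZ-A 200, at 6.47, 14.2 and 48.3 in SZ-A 400 and at 11.9, 21.6 and 36.1 in SZ-A 600. At 600 mg/kg/day all 9 libraries were above the HFD median and 5 above the highest HFD library. The fitted differences from HFD were 0.71, 0.96 and 0.95, with edgeR adjusted p of 0.735, 0.140 and 0.0647. Without HFD library 9 or 10 or SZ-A 600 library 1 the last was called, at an adjusted p as low as 0.0366. Insr was at 84.3, 169 and 283 CPM, at 80.3, 161 and 269 and at 113, 175 and 224 in the 3 doses. Its differences were 0.54, 0.43 and 0.55, with adjusted p of 0.646, 0.339 and 0.104. Irs2 was at 48.4, 124 and 314 CPM, at 46.5, 87.2 and 235 and at 82.0, 143 and 188. Its differences were 0.40, 0.05 and 0.20, and the last had an adjusted p of 0.726. At 600 mg/kg/day the highest Irs2 library, at 188 CPM, was thus below the SD median of 345.

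**Figure D3:**
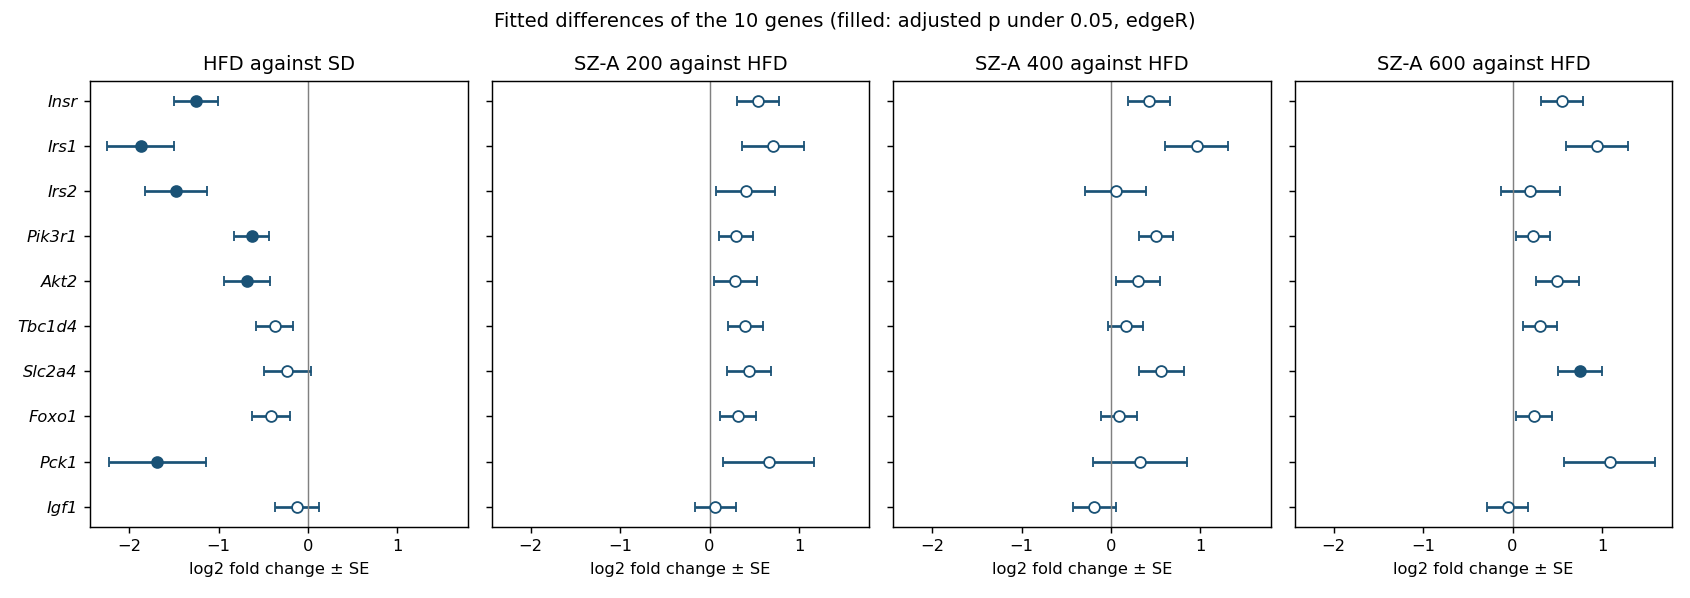
Fitted log2 fold changes ± SE of the 10 genes from edgeR in 4 comparisons, filled where the adjusted p was under 0.05. In HFD against SD 6 points are filled, all to the left of 0, and in the comparisons with HFD only Slc2a4 at 600 mg/kg/day is filled. The last 3 panels share the HFD libraries.

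Pck1 spread widely in every dose group. It was at 473, 1883 and 6241 CPM in SZ-A 200, at 385, 1794 and 5016 in SZ-A 400 and at 1261, 3889.6 and 5393 in SZ-A 600. All 9 SZ-A 600 libraries were above the HFD median, and 0 were above the highest HFD library. The differences at 200 and 400 mg/kg/day were 0.66 and 0.32. That at 600 mg/kg/day was 1.08 (SE 0.51, edgeR adjusted p = 0.151), and without HFD library 8 it was 1.53 (adjusted p = 0.0295). Akt2 was at 218, 356 and 651 CPM, at 135, 382 and 613 and at 226, 500.3 and 591 in the 3 dose groups, so that each reached into the ranges of both HFD and SD. It differed from HFD by 0.29, 0.30 and 0.50 (adjusted p = 0.154 for the last), and the last was 0.59 (adjusted p = 0.0457) without the 4 libraries with RNA of other tissue. Pik3r1 had medians of 163, 184 and 150.0 CPM and differences of 0.29, 0.50 and 0.23, Tbc1d4 medians of 53.4, 52.7 and 57.1 CPM and differences of 0.40, 0.16 and 0.31. Foxo1 had medians of 99.0, 87.5 and 95.8 CPM and differences of 0.32, 0.09 and 0.24. None of these 3 genes was called at any dose. Igf1 had medians of 199, 177 and 183 CPM. It differed by 0.07, -0.19 and -0.06 at the 3 doses, and under upper-quartile scaling the last was 0.01. SZ-A 400 library 6 held 18.7 CPM of Igf1, against 103 to 237 in the others.

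For Slc2a4 and Pck1 the fitted differences under SZ-A likewise lay farther from 0 in library set 1 at each dose, with 5 libraries in each high-fat group. At the highest dose 5 of 10 genes rose within set 1, where 16.8% of tested genes rose, and 0 of 10 within set 2, where 0.0183% did (4 genes). The 5 genes were Slc2a4 (1.48), Pck1 (2.88), Insr (1.02), Irs1 (1.36) and Akt2 (0.91), and in set 2 their differences were 0.17, 0.15, 0.31, 0.81 and 0.12. At 200 and 400 mg/kg/day Slc2a4 and Pck1 rose within set 1, where 2.5% and 3.27% of genes rose. Slc2a4 differed by 1.18 and 1.26 there, against -0.19 and -0.10 in set 2, and Pck1 by 2.33 and 1.87, against -0.11 and -0.30. In set 1 the 5 HFD libraries held Slc2a4 at 42.7 to 92.9 CPM and in set 2 at 52.2 to 172. With the set as a term Insr (0.64), Irs1 (1.06) and Slc2a4 (0.77) rose at 600 mg/kg/day, 3 of 10 against 10.1% of genes that rose. The test of a difference between the sets called none of the members at any dose, with a lowest adjusted p of 0.234 for Slc2a4 at 400 mg/kg/day.

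Over the 4 high-fat groups Slc2a4 was the only member called in the dose trend, and 9 of the 10 fitted trends were above 0. The trend of Slc2a4 was 0.24 on the log2 scale per step of 200 mg/kg/day (SE 0.08, edgeR adjusted p = 0.0366), where 6.66% of tested genes rose and 14.7% were called. The call was lost without any of HFD libraries 1 to 7 or SZ-A 600 libraries 2, 3 and 7. Irs1 had a trend of 0.31 (SE 0.11, adjusted p = 0.0521) and Pck1 of 0.29 (SE 0.16, adjusted p = 0.218). Without HFD library 8 the trend of Pck1 was 0.43 (adjusted p = 0.0493). Insr and Akt2 had trends of 0.15 each, and the other 5 genes ran from -0.04 (Igf1) to 0.09 (Pik3r1). Within set 1 the trend of Slc2a4 was 0.45 and within set 2 it was 0.06. Between the doses themselves 0 members and 0% of all genes were called in SZ-A 600 against SZ-A 200, and none of the members had an unadjusted p under 0.05 (all genes: 2458). Their fitted differences ran from -0.21 (Irs2) to 0.42 (Pck1).

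Against the SD group, the substrate Irs2 stayed lower in each SZ-A group. At 200 mg/kg/day 3 of 10 genes were lower, where 4.64% of tested genes were lower: Insr (-0.72, adjusted p = 0.0475), Irs1 (-1.17, adjusted p = 0.0325) and Irs2 (-1.07, adjusted p = 0.0387, edgeR). At 400 mg/kg/day Insr (-0.83, adjusted p = 0.0350) and Irs2 (-1.42, adjusted p = 0.0146) were lower, 2 of 10 where 2.56% of genes were. At 600 mg/kg/day Irs2 was lower (-1.28, adjusted p = 0.0411), 1 of 10 where 1.33% of genes were. Irs1 and Insr at 600 mg/kg/day differed from SD by -0.93 (adjusted p = 0.153) and -0.70 (adjusted p = 0.103), which the test did not separate from 0. These comparisons share the SD libraries. Pck1 differed from SD by -1.02, -1.36 and -0.60 at the 3 doses, Akt2 by -0.39, -0.38 and -0.18 and Pik3r1 by -0.34, -0.13 and -0.40, with no call. Irs1 at 400 mg/kg/day differed by -0.92 (adjusted p = 0.112) and was called without SZ-A 400 library 7 (-1.24, adjusted p = 0.0291). For Tbc1d4, Foxo1 and Igf1 the differences ran from -0.33 (Foxo1 at 400 mg/kg/day) to 0.03 (Tbc1d4 at 200 mg/kg/day, -0.06 under upper-quartile scaling). The call of Irs2 at 400 mg/kg/day held whichever library was left out. At 200 mg/kg/day the call of Irs1 was lost without SD libraries 3, 5 or 6 or SZ-A 200 libraries 2, 3, 4, 7 or 8 (adjusted p up to 0.0794), and that of Irs2 without the same libraries or SD libraries 2 or 7 (up to 0.0841). The call of Insr at that dose held in 20 of 43 fits (adjusted p up to 0.109), and among the groups compared the same 10 libraries as for Irs2 ended it. At 400 mg/kg/day the call of Insr was lost without SD libraries 2, 3, 5, 6 or 7 or SZ-A 400 libraries 2, 4 or 5 (up to 0.0875). The call of Irs2 at 600 mg/kg/day was lost without the same SD libraries or SZ-A 600 libraries 1, 2, 3, 4 or 8 (up to 0.0998). Slc2a4 in SZ-A 600 differed from SD by 0.53 (adjusted p = 0.275), with 8 of 9 libraries above the SD median.

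The other genes of the pathway, 95 tested of 96 listed, changed in both directions in HFD against SD, with 22 higher and 26 lower, where 18.6% and 13% of all tested genes were. Under upper-quartile scaling 15 were higher and 31 lower, and within set 2 the counts were 0 and 2. Without SD library 6 they were 19 and 17. Over all genes 2959 were higher and 3501 lower under that scaling, and 0.925% and 0.669% within set 2. Among the receptor adaptors 4 of 10 rose and 2 fell. Dok1, a docking protein that dampens kinase signals, rose by 1.82 on the log2 scale (edgeR adjusted p = 4.44e-04), and Grb2, the adaptor toward RAS, by 1.30 (adjusted p = 4.49e-04). Cbl, a ubiquitin ligase, rose by 0.65. The IGF1 receptor gene Igf1r fell by 0.98, from 54.4 ± 27.5 CPM (standard deviation, n = 7) to 27.6 ± 8.39 (standard deviation, n = 10). The fat cell substrate Irs3 was at 28.0 FPKM in SD and 27.3 in HFD, with a difference of 0.02 (adjusted p = 0.972). Irs3 was picked for this description after its values were seen.

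In the core of phosphatidylinositol 3-kinase, AKT and mTOR 4 of 19 genes rose and 8 fell in HFD. With all libraries in the fit, relatives of the same enzymes went in opposite directions. Akt2 fell while Akt1 rose by 0.60 (edgeR adjusted p = 0.00488), and Pik3r1 fell while Pik3r2 rose by 0.55 (adjusted p = 0.00135). As given above, the calls of Akt2 and Pik3r1 were lost without single libraries, and neither gene was called within set 2. Pik3r3 fell by 1.03 (adjusted p = 0.00220). Per length Akt2 stood at 75.4 ± 24.2 FPKM and Akt1 at 34.4 in SD, and at 45.5 ± 15.4 and 50.3 in HFD. Rptor, the mTORC1 scaffold, rose by 0.57, while the kinases Rps6kb1 and Pdpk1 fell by 0.54 and 0.59. Pde3b, the phosphodiesterase through which insulin holds back lipolysis, fell by 1.33 (adjusted p = 0.00212), from 613 ± 209 CPM (standard deviation, n = 7) to 243 ± 125 (standard deviation, n = 10). Akt1, Pik3r3 and Pde3b were picked for this description after their values were seen.

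Among negative regulators 2 of 12 rose and 3 fell in HFD. Ptpn1, the phosphatase PTP1B that dephosphorylates the receptor, rose by 1.02 (edgeR adjusted p = 0.00305). Grb10, an adaptor that inhibits the receptor, fell by 1.32 (adjusted p = 0.00102), and the phosphatase Phlpp2 fell by 0.84. Enpp1, a membrane phosphodiesterase that binds the receptor, rose by 1.96 (adjusted p = 0.00334) and was chosen after its value was seen. Of the genes of GLUT4 traffic 5 of 14 rose and 5 fell. Lnpep, the aminopeptidase that travels with GLUT4, fell by 0.76 (adjusted p = 8.27e-04), while Stx4a, Stxbp3 and Rab8a, which serve vesicle fusion and transport, rose by 0.50, 0.74 and 0.74. Of 13 genes of glucose entry and trapping 3 rose and 3 fell. Hk1 rose by 0.71 and Hk2, the insulin-regulated hexokinase, fell by 0.57 (adjusted p = 0.0349, chosen after its value was seen). The glycolytic enzyme Gpi1 rose by 0.59, and the transporters Slc2a3 and Slc2a10 differed by -1.19 and 0.77, both called. The basal transporter Slc2a1 was at 6.34 FPKM in SD against 31.2 ± 9.85 for Slc2a4 (standard deviation, n = 7).

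Of 10 FOXO factors and targets 2 rose and 2 fell in HFD. Txnip, which restrains glucose uptake, fell by 0.95 (edgeR adjusted p = 0.00211) and Foxo6, at 1.28 CPM in SD, by 2.39. Foxo3 rose by 0.47 and Sesn1 by 0.70, beside the fitted difference of -0.42 of Foxo1. None of the 5 other genes of glyceroneogenesis and glycerol was called, beside the fall of Pck1. Of 12 genes of the IGF axis 2 rose and 3 fell. Igf2r, the clearance receptor of IGF2, rose by 1.01, and 3 genes of growth hormone signalling fell: the receptor gene Ghr (-0.84), the transducer Stat5a (-0.42) and the feedback inhibitor Socs2 (-0.62).

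**Figure D4:**
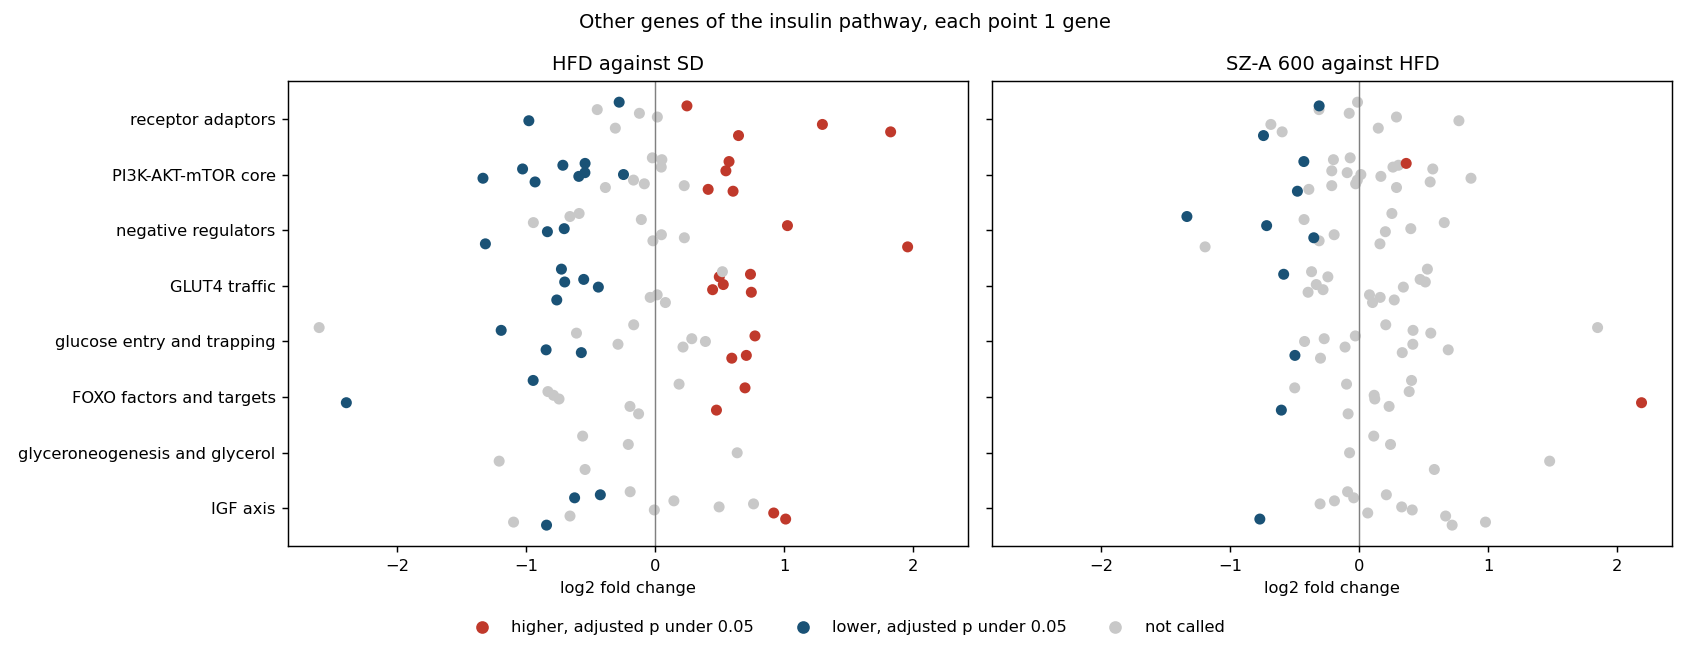
Fitted log2 fold changes of the 95 other pathway genes by list, in HFD against SD and in SZ-A 600 against HFD. Red points were higher and blue points lower at an adjusted p under 0.05. The left panel holds 22 red and 26 blue points, and the right panel 2 red and 11 blue.

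Under SZ-A these other genes gave few calls at the lower doses, and, with all libraries in the fit, more falls than rises at the highest, as did all tested genes (4.98% rose and 6.69% fell). For all genes that order was reversed under upper-quartile scaling (1136 rose and 1058 fell), with no filter (1083 and 869) and within set 1 (3385 and 2584). At 200 mg/kg/day 0 of 95 were called. At 400 mg/kg/day Pfkm (0.71, edgeR adjusted p = 0.00543), muscle-type phosphofructokinase, and Pck2 (0.40, adjusted p = 0.0343), the mitochondrial relative of Pck1, were higher. Without the 4 libraries with RNA of other tissue 0 of the 95 were called, and 0 without SZ-A 400 library 6 alone. Over all genes 2.87% were called at that dose with all libraries and 0.0549% without those 4. At 600 mg/kg/day 2 rose, Foxo6 (2.19, at a mean of 1.11 CPM) and Rps6kb1 (0.36), and 11 fell. The 11 included the receptor phosphatase Ptpn1 (-0.72, adjusted p = 0.0425), Socs3 (-1.34, adjusted p = 0.0190), an inhibitor of receptor signalling, and Inppl1 (-0.35), a lipid phosphatase. Akt1 (-0.48), Hk1 (-0.50), Foxo3 (-0.60), Igf2r (-0.77), Cbl (-0.74), Stxbp3 (-0.59), Rptor (-0.43) and Shc1 (-0.31) were the others. Socs3 was at 26.7 ± 17.9 CPM in HFD (standard deviation, n = 10) and at 10.6 ± 4.11 in SZ-A 600 (standard deviation, n = 9). The macrophage markers fell in the same comparison, as given above, and their part in these falls was not tested. Within set 2 none of the 95 genes was called at this dose, and within set 1 30 rose and 23 fell. Over all genes 0.0183% rose and 0% fell within set 2, and 16.8% and 12.8% within set 1. The counts of 2 and 11 of the 95 genes became 0 and 5 with no filter on low counts. Without the 4 libraries with RNA of other tissue they became 9 and 12, where 3.86% of all genes rose and 7.49% fell. With the library set as a term they became 9 and 18, where 10.1% and 11.5% of all genes did. Over single libraries left out they ran from 0 to 8 and from 3 (without SZ-A 600 library 6) to 18 (without HFD library 8). Without HFD library 3 they were 0 and 4, without HFD library 6 or SZ-A 600 library 5 1 and 5, and without SZ-A 600 library 3 0 and 5.

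Between libraries 9 of the 10 genes varied together, and Igf1 varied apart from them. With the means of group and library set removed, Pearson's r over the 43 libraries was 0.44 or more for every pair without Igf1. The highest was that of Akt2 and Pck1 (r = 0.948, Spearman's rho = 0.962, permutation p = 1e-05 for each, the smallest that 100000 permutations can give, and 1.6e-05 for r adjusted over 45 pairs). Without the 2 libraries farthest from the median of the first-named gene of the pair, here Akt2, it was 0.943. The pairs Insr with Irs2, Irs2 with Pck1 and Insr with Irs1 had r of 0.891, 0.887 and 0.849 and rho of 0.898, 0.920 and 0.854, each at that same smallest permutation p, and r of 0.875, 0.877 and 0.829 without the 2 farthest libraries. The pairs with Igf1 ran from -0.03 (Slc2a4) to 0.37 (Akt2). The last (permutation p = 0.0167, adjusted 0.0203, rho = 0.115 with p = 0.461) was 0.07 without the 2 libraries farthest from the median of Akt2 and so rested on them. All points share their library's cell mixture and depth.

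**Figure D5:**
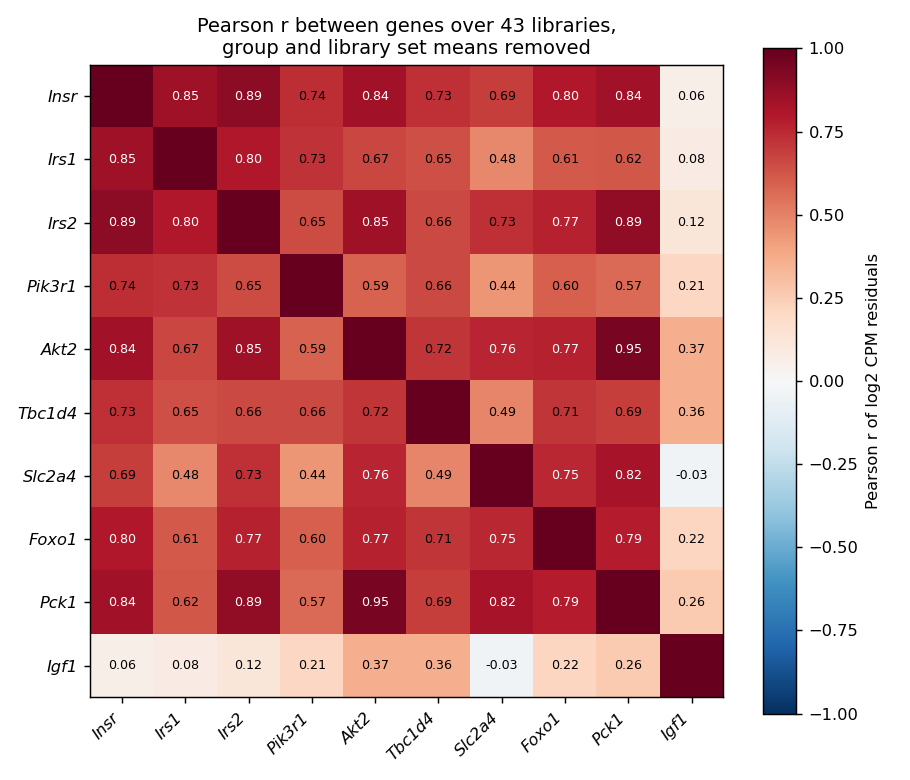
Pearson r between the 10 genes over 43 libraries, after the means of group and library set were removed from log2 CPM. Every cell among 9 genes is between 0.44 and 0.95, and the row of Igf1 runs from -0.03 to 0.37.

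Among 11182 candidate genes those most alike in the same measure were ranked for 5 members. Nedd4, a ubiquitin ligase, Zbtb4 and Pdzd2 came first for Insr (r = 0.948, 0.944 and 0.931), and Ptpn14, Nedd4 and Zbtb4 for Irs1 (0.904, 0.880 and 0.874). For Slc2a4 they were Pxmp2, a peroxisomal membrane protein, St3gal3 and Clybl, a mitochondrial lyase (0.911, 0.911 and 0.910). For Pck1 they were Adhfe1, the secreted factor Nrg4 and the valine-catabolic enzyme Hibch (0.971, 0.969 and 0.965). For Igf1 they were Mpp1, Sh3tc1 and Ttyh2 (0.835, 0.828 and 0.826).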

How the data were processed

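The 43 libraries hold poly(A) RNA of epididymal fat. Per the labels' protocols the RNA came from a TRIzol extraction, strand was marked by dUTP, and sequencing on Illumina was paired. Whole-number read counts of each gene, per the file headers, entered the tests as the authors deposited them. FPKM, likewise deposited by the authors per the file headers, served for levels between genes and for alternatives on log2(FPKM + 1) and log2(FPKM + 0.1). In each library the FPKM equal counts per total and gene length times a constant from 0.776 to 1.15. The sources used here do not name the aligner or the counting program or say whether counting used strand, so reads of a gene and an overlapping antisense gene cannot be told apart. The submitters' processing notes name mm10, yet the start or end of 0 of the 10 genes equals that in a GRCm38 annotation, so gene coordinates are as deposited and are not joined with the promoter coordinates (GRCm38.p6).

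Counts were filtered with filterByExpr and tested with edgeR 4.0.16 (TMM, robust quasi-likelihood, 1 fit over the 5 groups, R 4.3.3), with Benjamini-Hochberg adjustment over 20218 genes. The members, lists, markers and alternatives were chosen with earlier results of these data known. All members are named in every comparison. Of each other list the 4 called genes with the smallest p in HFD against SD and every gene called at a dose are named, and for 5 members the 3 most alike genes of at least 5 CPM. A gene that this rule would name is not reported here. Log2 CPM used a prior count of 2. A gene was high in 1 library alone where it reached 10 CPM there and exceeded its median over the libraries 20 times (floor 0.05 CPM), and 100 such genes marked RNA of other tissue. No 2 libraries held identical values. The alternatives were other scalings, DESeq2 1.42.0, limma-trend 3.58.1 on FPKM, no filter, the replicate number as a block, each library left out, each library set alone or as a term, and the libraries marked for other tissue left out. Figures were drawn with matplotlib 3.10.9.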

Additional observations from a re-analysis of the deposited data

Results flagged for a closer look

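Of 50 combinations of gene and group tested for a library far from the rest of its group, 7 held one. All 7 were the lowest of their group. Chance gives about 1 in 20 for a single combination. Most of the genes varied together between libraries, so the 50 are not independent and that rate does not measure how unusual 7 is. SD library 4 was low for Insr (166 CPM against 253 to 333 in the others), Akt2 (203 against 444 to 729) and Pck1 (1256 against 4906 to 7551). SZ-A 400 library 6 was low for Akt2 (135 against 301 to 613) and Igf1 (18.7 against 103 to 237), and SZ-A 600 library 6 for Slc2a4 (67.2 against 131 to 189). These 3 libraries held 537, 580 and 752 genes that were high in that library alone, and their summed adipocyte markers were at 13027, 3416 and 14784 CPM, the lowest of each group. The part of this in the low levels was not tested. HFD library 10 was low for Igf1 (89.2 against 151 to 261) and was not among the libraries with RNA of other tissue.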

How the results depend on the processing

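Of 1080 values of single members under alternatives other than leaving out a library, 1004 kept their side of the threshold, 25 lost the call and 51 gained it. No called value changed sign, and 74 uncalled values did. In HFD against SD the count of 6 members called became 1 within set 2 and stayed within 1.5 times of 6 otherwise. Of all genes 13% were lower in the main fit and 0.669% within set 2. With 0 called as reported, SZ-A 200 against HFD gave 2 within set 1, and SZ-A 400 against HFD gave 2 within set 1 and 1 with the library set as a term. In these fits 2.5%, 3.27% and 4.42% of all genes rose. For SZ-A 600 against HFD, with 1 called, no filter and set 2 alone gave 0; the libraries with other tissue RNA left out, DESeq2's Wald test and limma-trend on log2(FPKM + 1) or log2(FPKM + 0.1) gave 2; the set as a term gave 3; both together and set 1 alone gave 5. For the dose trend, with 1, set 2 alone gave 0, DESeq2's Wald test and the other tissue libraries left out 2, the set as a term 3, and both together and set 1 alone 5. Over all genes 4.98% rose in SZ-A 600 against HFD in the main fit and 6.66% in the trend. Without the other tissue libraries these shares were 3.86% and 3.55%. With the set as a term they were 10.1% and 12.1%, and with both changes 10.4% and 9.7%. Within set 1 they were 16.8% and 15.6%, and within set 2 both were 0.0183%. DESeq2's Wald test gave 1231 and 1460 rises, where the main fit gave 1006 and 1347. Against SD the counts of 3, 2 and 1 at 200, 400 and 600 mg/kg/day became 0, 1 and 0 with no filter and within set 1. They became 0 within set 2, and at 600 mg/kg/day 2 without the other tissue libraries, with or without the set as a term. Over all genes 939, 518 and 269 were lower at the 3 doses in the main fit. With no filter 975, 345 and 132 were lower, within set 1 690, 728 and 251, and within set 2 0 at each dose. At 600 mg/kg/day 875 were lower without the other tissue libraries, and 1059 with the set as a term as well. Leaving out each library gave 4 to 6 members in HFD against SD, 0 to 0 for SZ-A 200 and SZ-A 400 against HFD, 0 to 2 for SZ-A 600 against HFD and for the trend, 0 to 3, 1 to 3 and 0 to 1 against SD, and 0 to 0 between doses. The cause of these changes was not tested, and the fits within a set also held fewer libraries.

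Replicate numbers were not used as pairs in the main fit. With group means removed, 49 of 79 same-numbered pairs of different groups had a correlation of residuals over 0.1 (range -0.36 to 0.54). The median was 0.20, against -0.03 for pairs with different numbers, and 10 of 43 libraries correlated best with their own number. With the means of library set removed as well, 21 of 79 were over 0.1. The medians were then -0.04 and 0.01, and 5 of 43 libraries correlated best with their own number. With the replicate block 8 members were called in HFD against SD, 1 in SZ-A 400 and 4 in SZ-A 600 against HFD, 4 in SZ-A 400 and 3 in SZ-A 600 against SD, and 4 in the trend. Over all genes the block also gave more calls in both directions in HFD against SD (5099 higher and 5061 lower) and in SZ-A 600 against HFD (1641 and 2100). In SZ-A 400 against HFD it gave 329 higher and 310 lower, where the main fit gave 494 and 87. Against SD 2124 genes were lower at 400 mg/kg/day and 1706 at 600 mg/kg/day, where the main fit gave 518 and 269. In the trend 1906 rose and 2432 fell, where the main fit gave 1347 and 1619. The lowest count of any member was 164, for Irs1 in HFD library 2.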
